A study of Mus musculus with 4 samples.

Results

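The genes described here encode the respiratory chain and ATP synthase subunits that are made from nuclear DNA, together with the assembly factors that share their name stems. They were taken by name from the expression table, as every symbol beginning with Nduf, Sdha to Sdhd, Uqcr, Cox4 to Cox8 or Atp5. This gave 90 of 11111 rows, of which 78 encode subunits and 12 encode assembly factors (8 Ndufaf and 4 Sdhaf genes). By complex, the subunits numbered 36 for complex I, 4 for complex II, 8 for complex III, 13 for complex IV and 17 for complex V. Ndufa4 was counted with complex IV, where its protein is now placed, although it is named after complex I. All cells were macrophages grown for 7 days from bone marrow of wild-type C57BL/6 mice. They were transfected with Endoporter (6 µl/ml) and either Ctrl MO or Reg1-MOs, morpholinos aimed at the transcript of Regnase-1, each at 2 µM for 24 hours. Both groups then received LPS, a bacterial cell wall component that activates macrophages, at 10 ng/ml for 4 hours, so no unstimulated cells enter the comparison. Each group had 2 libraries, and no label says whether these came from separate mice or cultures. The p-values therefore rest only on how far these libraries vary, which can be technical variation. In the table the Reg1-MOs libraries carry the headings MO1 and MO2, also the names of the 2 targeting morpholinos. Whether a library received 1 or both is not given, and they were treated as replicates.

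Complexes I and II feed electrons from NADH and succinate to ubiquinone, complex III passes them to cytochrome c, and complex IV hands them to oxygen. Complexes I, III and IV pump protons, and complex V, the ATP synthase, uses the returning protons to make ATP. In macrophages, LPS is known to shift energy supply towards glycolysis, and succinate oxidation at complex II and reverse electron flow through complex I are known sources of mitochondrial oxidants in these cells.

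Few of these genes differed between the groups. By limma, 3 of 90 rose with Reg1-MOs at an adjusted p up to 0.05, or 3.33%, against 6.22% of all rows. They were Sdhb of complex II (1.38-fold), Atp5md of complex V (1.32-fold) and Cox7a2l of complex IV (1.23-fold). None fell, against 6.03% of all rows, and at an unadjusted p up to 0.05 by limma 15 stood higher and none lower, against 13.6% and 15.7% of all rows. With limma's voom weights the calls were also 3 and 0, with 1 gene below 0 at an unadjusted p up to 0.05. The share that rose was below that of the whole table, so it does not set these genes apart. The intervals were narrow: for 79 of 90 genes the 95% interval of the difference lay wholly within a 1.5-fold change in either direction, and for 85 within 2-fold. Of all 11111 rows, 7290 and 9711 did so. The 90 genes also had more reads, with a median of 713.6 against 429.5 over all rows. Of the 11 genes whose intervals reached beyond 1.5-fold, 7 were assembly factors. The 11 also included Sdhb and Atp5md, with standard errors of 0.08 and 0.10, against a median of 0.10 over the 90 genes.

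**Figure D1:**
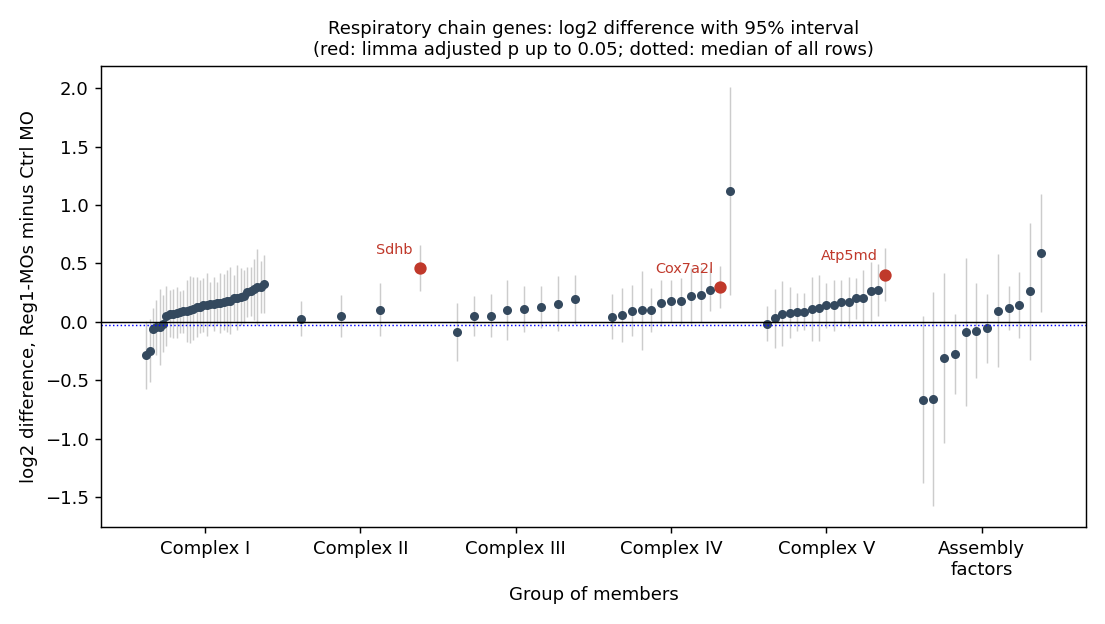
Log2 difference (Reg1-MOs minus Ctrl MO) of each of the 90 genes with its 95% interval from limma, grouped by complex, with the assembly factors at the right. Sdhb, Cox7a2l and Atp5md, in red, passed an adjusted p of 0.05, and the dotted line is the median of all rows, at -0.03.

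The level of most subunit transcripts stood slightly higher with Reg1-MOs. The log2 difference was above 0 in 75 of 90 genes, against 45.6% of all rows, and in 70 of the 78 subunits. The median difference was 0.12 over the 90 genes, against -0.03 over all rows. Both Reg1-MOs libraries lay above both Ctrl MO libraries in 47 genes, or 52.2%, against 27.1% of all rows. Both lay below in 5 genes, or 5.56%, against 31.8% of all rows. These counts and medians are descriptions and were not tested. The shift came unevenly from the libraries. Relative to the mean of the controls, the median gene stood at 0.04 in Ctrl MO replicate 1 and -0.04 in Ctrl MO replicate 2, at 0.19 in Reg1-MOs replicate 1 and at 0.05 in Reg1-MOs replicate 2. Replicate 1 of Reg1-MOs was above replicate 2 in 81 of 90 genes, against 48.3% of all rows, and Ctrl MO replicate 1 was above replicate 2 in 72 of 90, against 45.3%. Without Reg1-MOs replicate 1 the median difference was 0.05 and 58 of 78 subunits were above 0. Without Reg1-MOs replicate 2 they were 0.19 and 75. Wherever a library is left out here, its group has 1 library, which limma then takes to vary like those of the other group, so the p-values of such fits rest on the spread of 1 group.

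**Figure D2:**
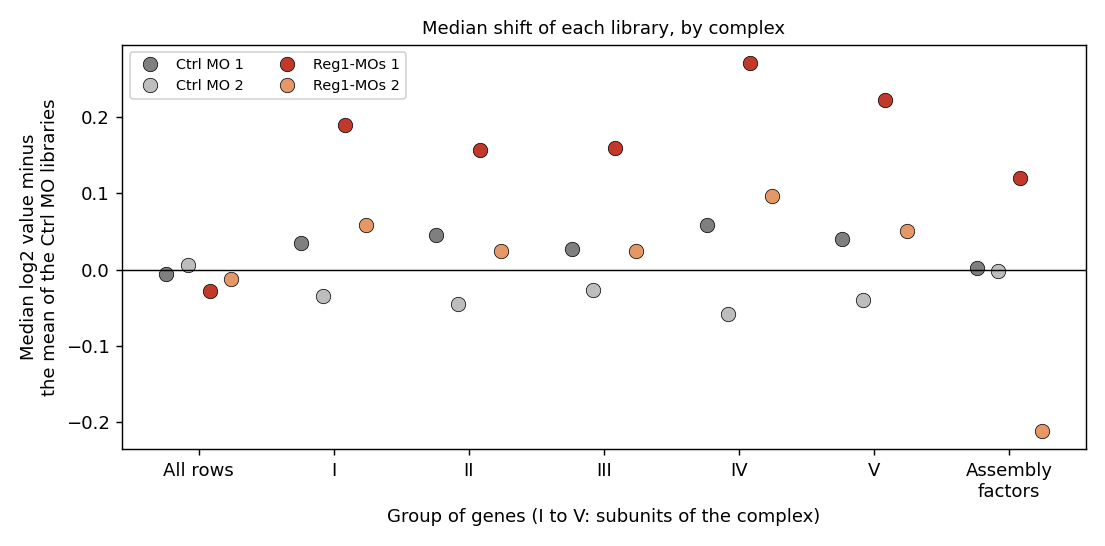
Median over each group of genes of the log2 value in a library minus the mean of the 2 Ctrl MO libraries, for all rows, for the subunits of complexes I to V and for the assembly factors. In all 5 complexes Reg1-MOs replicate 1 is highest, from 0.16 to 0.27, and Reg1-MOs replicate 2 lies between 0.02 and 0.10, while the assembly factors stand at 0.12 and -0.21 in these libraries.

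Transcript length differed between these genes and the rest of the table, and moved with the shift. The median principal transcript of the 90 genes was 870 bases long, against 2973 over all rows, and 48 of the 78 subunits were under 1000 bases, against 6.2% of all rows with a known length. Among 637 other rows under 1000 bases, the median stood at 0.16 in Reg1-MOs replicate 1 and 0.00 in Reg1-MOs replicate 2 relative to the controls, and at 0.03 and -0.04 in Ctrl MO replicates 1 and 2. Their median group difference was 0.08, against -0.03 in 10361 other rows of 1000 bases or more. The 48 short subunits had a median difference of 0.16 and the 30 longer ones 0.09. The part of transcript length in the shift was not tested.

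**Figure D3:**
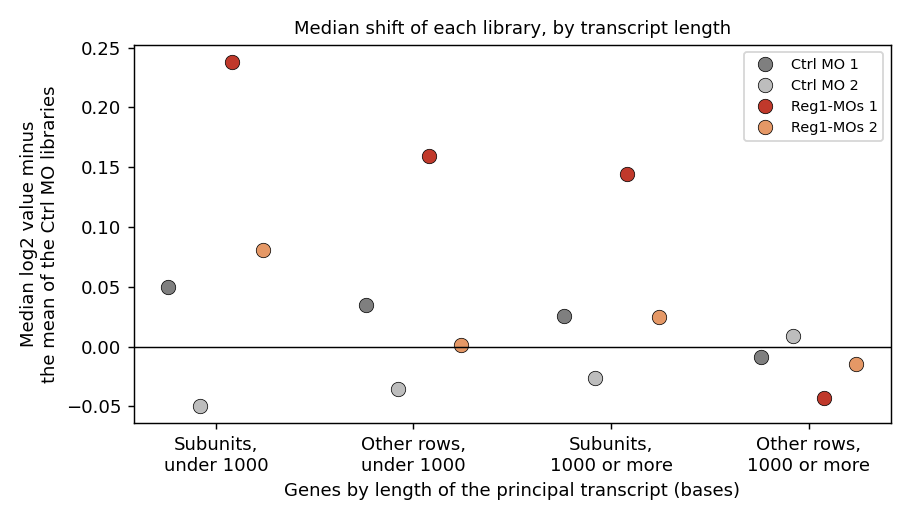
Median log2 value of each library minus the mean of the Ctrl MO libraries, for subunits and for all other rows, split at a principal transcript of 1000 bases. Reg1-MOs replicate 1 stands at 0.24 for short subunits, 0.16 for other short rows, 0.14 for longer subunits and -0.04 for other longer rows.

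Complex II, succinate dehydrogenase, held the clearest difference. Sdhb encodes its iron-sulphur subunit, which carries electrons from the flavin subunit to the membrane anchor. In normalized reads (2 to the power of the deposited value), Sdhb (ENSMUSG00000009863; chromosome 4, 140961203 to 140979193 on GRCm38, plus strand) stood at 59.5 and 56.2 under Ctrl MO, against 83.6 and 75.7 under Reg1-MOs. Normalized reads are scaled by library and are not counts of reads. Sdhb had 1135 and 1070 reads under Ctrl MO, against 1620 and 1345 under Reg1-MOs. In normalized reads the groups did not overlap, and the gap between them exceeded the spread within either (57.8 ± 2.38 against 79.7 ± 5.59, SD, n = 2 each). The log2 difference was 0.46 (SE 0.08, 95% interval 0.27 to 0.65, limma adjusted p = 0.0137). Leaving out Ctrl MO replicate 2 ended the call (limma adjusted p = 0.0859), as did leaving out Reg1-MOs replicate 1 (0.0704) and dropping the variance trend (0.0844).

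The other complex II subunits did not pass. Sdha, the flavin subunit that binds succinate, had 187 and 191 normalized reads under Ctrl MO, against 192 and 193 under Reg1-MOs, a log2 difference of 0.03 (95% interval -0.12 to 0.18). Sdhc and Sdhd encode the membrane anchor that binds ubiquinone. Sdhc stood at 94.7 and 88.6 against 107 and 90.4 normalized reads, and its log2 difference was 0.10 (95% interval -0.12 to 0.33). Sdhd stood at 82.4 and 76.8 against 84.5 and 80.6, and its log2 difference was 0.05 (95% interval -0.13 to 0.23). In Sdhc and Sdhd the groups overlapped. Per kilobase of principal transcript, the mean levels over the 4 libraries were 65.8 normalized reads for Sdha, 60.2 for Sdhb, 65.9 for Sdhd and 30.03 for Sdhc. Whether the Sdhb difference exceeds that of its partners was not tested.

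The promoters of the 3 genes that passed are shown because they are the sequences nearest to the called differences. Each runs 5′ to 3′ from 250 bases before to 30 bases after the start that RefSeq lists, on GRCm38.p6 (Sdhb, chr4:140961021-140961300, plus strand; Atp5md, chr19:47090618-47090897, minus strand; Cox7a2l, chr17:83514304-83514583, minus strand). Capitals mark letters that match the core motifs of NRF1 (GCGCATGC) or of ETS factors such as GABP (CCGGAAG) on either strand; these factors are known regulators of respiratory chain genes.

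Sdhb: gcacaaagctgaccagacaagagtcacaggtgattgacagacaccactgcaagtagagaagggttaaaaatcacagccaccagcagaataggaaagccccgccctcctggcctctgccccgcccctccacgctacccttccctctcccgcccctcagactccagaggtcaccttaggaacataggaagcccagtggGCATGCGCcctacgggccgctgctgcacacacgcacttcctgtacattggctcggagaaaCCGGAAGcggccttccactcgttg

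Atp5md: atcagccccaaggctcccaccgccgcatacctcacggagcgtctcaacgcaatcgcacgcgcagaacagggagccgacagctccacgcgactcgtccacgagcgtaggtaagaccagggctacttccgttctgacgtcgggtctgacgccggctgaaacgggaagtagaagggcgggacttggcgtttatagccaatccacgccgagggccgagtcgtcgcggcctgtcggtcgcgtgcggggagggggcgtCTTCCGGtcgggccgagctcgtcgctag

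Cox7a2l: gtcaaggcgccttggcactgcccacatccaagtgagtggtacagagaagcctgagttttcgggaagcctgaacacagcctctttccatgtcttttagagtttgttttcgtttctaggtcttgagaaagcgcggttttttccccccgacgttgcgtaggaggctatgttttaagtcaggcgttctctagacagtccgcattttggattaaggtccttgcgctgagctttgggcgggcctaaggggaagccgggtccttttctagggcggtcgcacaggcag

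The Sdhb promoter held an NRF1 match that begins 54 bases before the listed start. It also held an ETS match that begins at base 7, counting the listed start as base 1. Of these 2 motifs, Atp5md held only the ETS match and Cox7a2l held neither. The NF-Y letters, counted below, are not marked in the sequences, and Sdhb and Atp5md held 1 match each. Among the 90 genes, 76 had a promoter in the RefSeq table, 81 promoters in all. The NRF1 letters were found in 12 of these 81, or 14.8%, against 5.26% of 11349 promoters of the other genes in the expression table and 2.71% of all 32851 promoters of the same length. The ETS letters were found in 22, or 27.2%, against 18.5% and 8.86%. The YY1 letters (AAGATGGC) were found in 11, or 13.6%, against 4.66% and 2.75%, and the NF-Y letters (CCAAT) in 33, or 40.7%, against 37.4% of both. All motifs were searched on both strands over 300 bases, and each promoter was counted once per motif, since NRF1 matches on the 2 strands can overlap. No matches overlap in the promoters printed. A match is a description of the letters only.

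Complex V had 1 rise. Atp5md encodes DAPIT, a small membrane subunit that sits where ATP synthase dimers meet. Atp5md (ENSMUSG00000071528, named Usmg5 in GENCODE; chromosome 19, 47083464 to 47090647, minus strand) stood at 35.6 and 32.9 normalized reads under Ctrl MO, against 48.3 and 42.2 under Reg1-MOs. Both Reg1-MOs libraries lay above both controls, and the log2 difference was 0.40 (SE 0.10, 95% interval 0.17 to 0.63, limma adjusted p = 0.0384). Of its 75-base stretches, 34.7% also occur in transcripts of other genes, so part of its reads is uncertain. Leaving out a library ended the call for Ctrl MO replicate 1 (limma adjusted p = 0.0630), for Ctrl MO replicate 2 (0.231) and for Reg1-MOs replicate 1 (0.128), as did dropping the variance trend (0.128).

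The catalytic head of ATP synthase had no call. Atp5b, the beta subunit that carries the catalytic sites, was the most abundant of the 90 genes by reads and stood at 558 and 544 normalized reads under Ctrl MO, against 608 and 563 under Reg1-MOs. Its log2 difference was 0.09 (95% interval -0.07 to 0.24). Atp5a1, the alpha subunit, stood at 453 and 456 against 463 and 436, a log2 difference of -0.02 (95% interval -0.17 to 0.13) whose sign turned with the scaling. The groups overlapped in Atp5a1, and in Atp5b they were separated by less than the gap between the Reg1-MOs libraries. The smaller head subunits Atp5c1 (gamma), Atp5d (delta) and Atp5e (epsilon) couple the catalytic subunits to the rotating ring of subunit c. Atp5c1 stood at 77.7 in both controls against 93.2 and 85.5 normalized reads, and Atp5d at 68.4 and 59.7 against 81.2 and 73.2. Atp5e stood at 52.8 and 49.9 against 68.0 and 55.5. In all 3 the groups did not overlap, and the log2 differences were 0.20, 0.27 and 0.26, with limma adjusted p from 0.109 to 0.158. Atp5e passed without Reg1-MOs replicate 2 (limma adjusted p = 0.0438).

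The 3 genes Atp5g1, Atp5g2 and Atp5g3 encode the same mature subunit c, the rotating ring. Atp5g3 gave most of this message, with 167 normalized reads per kilobase against 26.7 for Atp5g2 and 3.28 for Atp5g1. The principal transcript of Atp5g1 is 4715 bases long, against 731 for Atp5g2 and 714 for Atp5g3. The low level of Atp5g1 per kilobase therefore depends on that annotated length. Mean reads were 2247 for Atp5g3, 366.5 for Atp5g2 and 290.75 for Atp5g1. Of the 75-base stretches of Atp5g2, 86.9% occur in transcripts of other genes, so its level is uncertain. In normalized reads Atp5g3 stood at 117 and 110 in the controls against 133 and 117, Atp5g2 at 18.8 and 17.9 against 20.9 and 20.4, and Atp5g1 at 16.4 and 13.8 against 16.3 and 15.3. Their log2 differences were 0.14, 0.17 and 0.07, and none passed. The 4 peripheral stalk genes had a median difference of 0.10 and the 5 small membrane subunits, Atp5md among them, 0.14.

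Complex IV, cytochrome c oxidase, had the highest median difference of the 5 complexes, at 0.18, and all 13 of its genes stood above 0. This median was 0.10 when Reg1-MOs replicate 1 was left out and 0.27 when replicate 2 was. Only Cox7a2l passed. Its protein, also called SCAF1, has been described as joining complexes III and IV into a supercomplex. Whether it does so in the mouse strain used here was not tested. Cox7a2l (ENSMUSG00000024248; chromosome 17, 83501918 to 83517330, minus strand) stood at 77.5 and 73.7 normalized reads under Ctrl MO, against 97.0 and 89.1 under Reg1-MOs. The groups did not overlap, with a log2 difference of 0.30 (SE 0.08, 95% interval 0.12 to 0.48, limma adjusted p = 0.0489). The call lay at the threshold, and leaving out Ctrl MO replicate 1 (limma adjusted p = 0.182), Ctrl MO replicate 2 (0.377) or Reg1-MOs replicate 1 (0.126) ended it. It also ended with quantile normalization (0.0604), among rows with a mean of at least 50 reads (0.0507) and with the variance trend dropped (0.148). Of its 75-base stretches, 15.3% occur in transcripts of other genes. Its relative Cox7a2, the regular subunit of the oxidase, stood at 58.8 and 55.6 against 66.0 and 63.2, a log2 difference of 0.18 (95% interval -0.00 to 0.36).

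**Figure D4:**
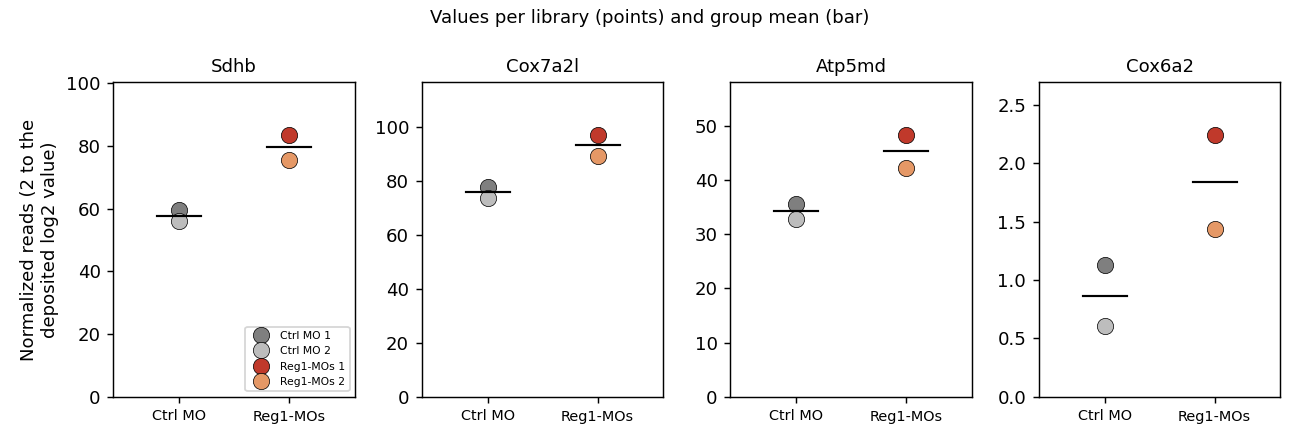
Normalized reads of Sdhb, Cox7a2l, Atp5md and Cox6a2 in each library (points) with the group mean (bar), each on its own axis from 0. In all 4 genes both Reg1-MOs libraries lie above both Ctrl MO libraries, and Cox6a2, at 0.603 to 2.24 normalized reads, did not pass the test.

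Cox5a, a structural subunit on the matrix side, had the smallest p of the complex IV genes that did not pass. It stood at 121 and 111 normalized reads under Ctrl MO, against 146 and 135 under Reg1-MOs, without overlap, a log2 difference of 0.28 (SE 0.08, limma adjusted p = 0.0593). It passed with equal totals of reads (limma adjusted p = 0.0491). Cox4i1, the regulatory subunit that binds adenine nucleotides, had the highest level per kilobase of all 90 genes at 397 normalized reads. It stood at 290 and 282 against 345 and 297, so Reg1-MOs replicate 1 alone was far from the controls, and it passed only without Reg1-MOs replicate 2 among the libraries left out (limma adjusted p = 0.0486). Ndufa4 stood at 55.0 and 54.9 against 65.8 and 58.8, without overlap, a log2 difference of 0.18 (95% interval -0.02 to 0.38).

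One isoform pair of complex IV had both members in the analysis. Cox6a1, the form of most tissues, stood at 85.0 and 75.7 normalized reads under Ctrl MO, against 102 and 85.7 under Reg1-MOs, a log2 difference of 0.22 (limma adjusted p = 0.202). Cox6a2, the form known from heart and skeletal muscle, had 21 and 11 reads under Ctrl MO, against 43 and 25 under Reg1-MOs. Its log2 difference of 1.12 was the largest of the 90 genes and its 95% interval ran from 0.23 to 2.01 (limma adjusted p = 0.0990). It moved between 0.67 and 1.57 as single libraries were left out, and it passed without Ctrl MO replicate 1 (limma adjusted p = 0.0081). Per kilobase, Cox6a1 stood at 153 normalized reads and Cox6a2 at 1.99. Cox6b1, on the intermembrane side, stood at 87.9 and 80.9 normalized reads against 96.7 and 83.9. Cox8a, a small membrane subunit, stood at 80.6 and 75.0 against 87.0 and 80.2. In both the log2 difference was 0.10 and the groups overlapped.

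Complex I, NADH dehydrogenase, had no call among 36 subunits, with a median difference of 0.14 and a range from -0.29 to 0.33. Of these, 6 of 36 stood above 0 at an unadjusted p up to 0.05 and none below, by limma, against 13.6% and 15.7% of all rows. The 7 core subunits, which bind the flavin and the iron-sulphur clusters, differed among themselves. Ndufs8, which carries a pair of iron-sulphur clusters near the ubiquinone site, stood at 17.5 and 15.6 normalized reads under Ctrl MO, against 21.4 and 19.95 under Reg1-MOs, a log2 difference of 0.33 (limma adjusted p = 0.0880). Ndufs7, which holds the last cluster before ubiquinone, stood at 26.1 and 23.1 against 22.2 and 18.2, a log2 difference of -0.29 (limma adjusted p = 0.175). In both genes the groups did not overlap, in opposite directions, and neither passed.

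Ndufs1, the largest core subunit, stood at -0.06 and Ndufv2 at -0.05, with 95% intervals from -0.24 to 0.11 and from -0.28 to 0.19. The 29 supernumerary subunits, which have no redox centre of their own, had a median difference of 0.15 against 0.09 for the core. Ndufa2, a small subunit of the matrix arm, stood at 41.6 and 37.4 normalized reads under Ctrl MO, against 51.4 and 46.0 under Reg1-MOs, a log2 difference of 0.30 (limma adjusted p = 0.0835). Ndufb8, of the membrane arm, stood at 44.7 and 43.4 normalized reads against 56.2 and 49.6, a log2 difference of 0.26 (limma adjusted p = 0.1003), and Ndufv3 at -0.25 (limma adjusted p = 0.204). Ndufa9 stood at 0.25 and passed without Reg1-MOs replicate 2 (limma adjusted p = 0.0418).

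Complex III, the cytochrome bc1 complex, had the narrowest range of differences of the 5 complexes, from -0.09 to 0.19 over 8 genes, and no call. Uqcrb, which binds near ubiquinone, had the smallest p, with 37.5 and 35.9 normalized reads against 44.4 and 39.5 and a log2 difference of 0.19 (limma adjusted p = 0.211). Uqcrfs1, the Rieske iron-sulphur protein, stood at 91.8 and 84.0 against 96.4 and 94.98, a log2 difference of 0.12. Uqcrc1, a core protein, stood at 123 in both controls and at 135 and 121 with Reg1-MOs. Uqcrh, the hinge protein, had the highest level per kilobase of these 8 genes, 126 normalized reads, and stood at 74.7 and 66.7 against 72.5 and 60.8. Its log2 difference of -0.09 was the only one below 0 among the 8, and its groups overlapped.

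The 12 assembly factors, which help build complexes I and II without staying in them, were at much lower levels, with a median of 3.67 normalized reads per kilobase against 56.1 for subunits. None passed, and 5 stood above 0. Their median difference was -0.07, but 0.12 when Reg1-MOs replicate 2 was left out and -0.21 when replicate 1 was, so it had no stable sign. Ndufaf6 had 46 and 37 reads under Ctrl MO, against 56 and 66 under Reg1-MOs, a log2 difference of 0.59 (limma adjusted p = 0.119). Sdhaf3 had 20 and 23 reads against 12 and 14, a log2 difference of -0.67 (limma adjusted p = 0.194), and Sdhaf1 had 16 and 33 against 13 and 15. Differences of this size were not resolved at such depths. Sdhaf2, which attaches the flavin to Sdha, was the most abundant of them and stood at 0.12 (95% interval -0.07 to 0.31).

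The rest of the pathway was read from 5 lists. Of 39 assembly factors outside the name rule, 1 rose and none fell by limma, against 6.22% and 6.03% of all rows. Their median difference was -0.04. The riser was Cox11, a copper chaperone for complex IV, at 8.57 and 8.95 normalized reads under Ctrl MO, against 12.6 and 14.2 under Reg1-MOs. Its log2 difference was 0.61 (SE 0.12, limma adjusted p = 0.0176), and the call ended when either Reg1-MOs library was left out (0.0580 for replicate 1 and 0.0603 for replicate 2) and with the variance trend dropped (0.0595). At an unadjusted p up to 0.05, 4 of these 39 were higher and 4 lower, against 13.6% and 15.7% of all rows. Tmem70, needed to assemble ATP synthase, stood just outside the threshold at -0.32 (limma adjusted p = 0.0502), and passed with voom weights (0.0463) and among rows with a mean of at least 50 reads (0.0476).

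Of 22 electron carriers and other enzymes linked to ubiquinone, none rose and 1 fell by limma, against 6.22% and 6.03% of all rows. Their median difference was 0.05. The gene that fell was Gpd2, the mitochondrial glycerol-3-phosphate dehydrogenase, which passes electrons from the cytosol to ubiquinone. Gpd2 stood at 385 and 404 normalized reads under Ctrl MO, against 281 and 335 under Reg1-MOs, and fell by 0.36 on the log2 scale (SE 0.09, limma adjusted p = 0.0424). Leaving out either Ctrl MO library (limma adjusted p = 0.0748 for replicate 1 and 0.192 for replicate 2) or Reg1-MOs replicate 1 (0.102) ended the call, and so did dropping the variance trend (0.167). Without Reg1-MOs replicate 1 it stood at -0.24. Cytochrome c (Cycs) stood at -0.08. Cytochrome c1 (Cyc1), a complex III subunit outside the name rule, stood at 0.18, and neither gene passed.

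None of 17 regulators of mitochondrial gene expression passed by limma, with a median difference of -0.01. At an unadjusted p up to 0.05 by limma, 1 was higher and 1 lower, against 13.6% and 15.7% of all rows. Gabpa, the DNA-binding subunit of GABP, stood at 76.1 and 76.6 normalized reads against 56.3 and 68.4, a log2 difference of -0.30 (limma adjusted p = 0.0981, or 0.0338 when Reg1-MOs replicate 2 was left out). Nrf1 stood at -0.14 and the mitochondrial DNA packaging factor Tfam at 0.20, both short of the threshold. Of 7 genes for proton leak, adenine nucleotide exchange and related functions, none passed. Among them Atpif1, the inhibitor that stops ATP synthase from running backwards, stood at 0.30 (limma adjusted p = 0.0768, or 0.0475 when Reg1-MOs replicate 2 was left out). The 13 subunits encoded by mitochondrial DNA were not analysed here.

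Facts of the whole series bear on these values as follows. Reads in the table numbered 23369753 to 25213695 per library, and the 90 genes held 0.385% and 0.365% of them in the controls, against 0.441% and 0.386% under Reg1-MOs. Zc3h12a, the gene of Regnase-1, stood at 179 and 187 normalized reads under Ctrl MO, against 403 and 380 under Reg1-MOs; morpholinos bind RNA and delete no gene, so this level does not show whether the protein was made. All 8 macrophage markers were measured, of which 1 rose and 2 fell by limma, against 6.22% and 6.03% of all rows. They summed to 19755.6 to 19772.5 normalized reads in the controls and 17903 to 17953 under Reg1-MOs. All 7 measured stromal cell markers, of 10 listed, fell by limma, against 6.03% of all rows. Their sums were 197 to 205 in the controls and 81.2 to 91.9 under Reg1-MOs. Neutrophil markers (8 of 9 measured, none called by limma) summed to 324 to 369 and 270 to 349. Dendritic cell, lymphocyte, mast cell, basophil and erythroid markers were listed but not analysed here. None of the measured stromal or neutrophil markers was at 0 in all libraries, and their part in the differences above was not tested. In such bulk samples, fewer cells of a type and less RNA per cell cannot be told apart.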

How the data were processed

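RNA was read from 4 libraries, 2 of Ctrl MO and 2 of Reg1-MOs, prepared with a directional poly(A) kit per the labels' protocols. The submitters' processing notes name cutadapt, FastQC, HISAT2 1.6.3 and mm10; which counter was used, with which strand setting, and how genes were filtered and scaled is not given in the sources used here. One table was deposited by the authors, of log2 values for 11111 genes. In every column, 2 to the power of the value was a whole number of steps plus 0.5 (within 0.01, in 100% of rows), so the reads per gene were recovered and used for depth and for 4 of the alternatives.

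The test was limma 3.58.1 (R 4.3.3) with a mean-variance trend and group as the only term, two-sided, fitted to every row of the deposited table without a filter. Benjamini-Hochberg adjustment ran over all rows, with a threshold of 0.05. The script was tested on simulated reads. All 90 members were tested, and 86 had a mean of at least 50 reads. SE is the moderated standard error, and an interval covers 95%. Levels per kilobase divide normalized reads by the length of the principal transcript in GENCODE M21 (GRCm38, the assembly of mm10), which also gave positions, counted from 1. Shared 75-base stretches were counted against all its transcripts on both strands: 50 members shared none, and Sdhaf1, Cox7c, Atp5g2 and Atp5l shared over 50%.

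Members and lists were chosen with earlier results of these data known. Named by rule were genes past the threshold, in each complex the 2 members with the smallest p and the 2 highest per kilobase, Sdha to Sdhd, the paralogue pairs (Ndufa4l2, Cox4i2, Cox6b2, Cox7a1 and Cox8b were not analysed here) and Zc3h12a (30 genes, of which 1 is not reported here); another 20 were named after their values were seen. The split at 1000 bases was also chosen after seeing the data. Alternatives were a replicate block, 3 other scalings, no variance trend, voom weights, an offset of 8 reads, a minimum of 50 reads and leaving out each library.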

Additional observations from a re-analysis of the deposited data

How the results depend on the processing

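The sign of the median difference over the 90 genes held under every alternative, from 0.05 to 0.19 with 1 library left out and from 0.12 to 0.15 otherwise. The count of rises ran from 0 to 6 with 1 library left out, and was 0 without a variance trend; no member fell in either case. Over all rows the share called in either direction also moved, from 12.2% to between 4.56% and 12.5% with 1 library left out and to 3.39% without the trend. With a replicate block, 20 members rose and 1, Ndufs7, fell, or 23.3% against 30.8% of all rows. Among those that rose were Atp5c1, Atp5d, Atp5e, Cox4i1, Cox5a, Cox6a1, Cox6a2, Ndufa2, Ndufa9, Ndufaf6, Ndufb8 and Ndufs8. Outside the 90 genes, Atpif1 also rose and Gabpa fell with the block. The replicate numbers pair nothing that a label states. Deviations of same-numbered libraries correlated at 0.10 over all rows (0.31 over rows with a mean of at least 50 reads). With 1 library left out, the medians ran from 0.058 to 0.190 for complex I, from 0.025 to 0.157 for complex II, from 0.024 to 0.159 for complex III, from 0.097 to 0.271 for complex IV, from 0.050 to 0.222 for complex V and from -0.211 to 0.121 for assembly factors, which stood at 0.094 among rows with a mean of at least 50 reads. Atp5a1 stood at 0.0486 with quantile normalization and 0.0047 with equal totals. Among the 50 named genes, differences whose sign turned as single libraries were left out were those of Atp5a1 (-0.0626 to 0.0263), Atp5g1 (-0.0570 to 0.192), Cox6b1 (-0.0063 to 0.198), Cycs (-0.199 to 0.0299), Ndufv2 (-0.143 to 0.0456), Sdhc (-0.0184 to 0.228), Uqcrc1 (-0.0265 to 0.132) and Uqcrh (-0.215 to 0.0383). Signs of unnamed members turned as well. Of the 90 genes, 62 to 83 stood above 0 with 1 library left out, against 75 with all libraries. Over all rows these shares were 45.3% to 48.0%, against 45.6%. The causes were not tested. Median SE over members was 0.10 on the log2 scale, and 4 members averaged under 50 reads, so differences of that order cannot be resolved with 2 libraries a group. Among the 50 named genes, centring on medians and an offset of 8 reads changed no call or sign.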
